A study of Mus musculus with 2 samples.

Results

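Immune checkpoint ligands are surface molecules, or enzymes that make soluble mediators, by which a cell restrains or kills the immune cells it meets. Cd274 (PD-L1), its paralog Pdcd1lg2 (PD-L2), Cd47, Cd200, Cd276 (B7-H3), Tnfsf10 (TRAIL), Ido1 and Nt5e (CD73) were taken as a named set of 8 genes out of the 33696 genes counted, and all 8 were found by symbol in both libraries. Tumor blood vessels are a place where such ligands matter, since circulating leukocytes touch the endothelium before they enter the tissue. PD-L1 and TRAIL are known interferon-induced genes, CD47 signals "do not eat me" through SIRPA on phagocytes, CD200 restrains myeloid cells through its receptor, B7-H3 is a B7-family molecule known from tumor vessels and tumor cells, CD73 turns AMP into adenosine, and IDO1 turns tryptophan into kynurenine.

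The study compared the endothelium of PyMT-M tumors, a macrophage-rich (High-MAC) model, with that of PyMT-N tumors, a macrophage-poor (Low-MAC) model. Both are sublines of MMTV-PyMT mammary tumors, in which a viral promoter drives the polyoma middle T antigen in mammary epithelium, and both were grown as transplanted cells in the mammary fat pad of otherwise untreated female C57BL/6 mice that received them at 6 to 8 weeks of age. Each library is 1 pool of 3 tumors, depleted of CD45+ cells, enriched for endothelium on beads, sorted for CD31+ CD144+ cells and profiled with droplet 3′ single-cell RNA sequencing. With 1 library per condition no difference between conditions could be tested, and every interval given here covers counting error of unique molecular identifiers (UMIs) only, not the variation between mice.

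Cells with at least 200 detected genes and at most 10% mitochondrial UMIs numbered 6719 of 7821 barcodes in PyMT-M and 5607 of 6974 in PyMT-N, and 20 barcodes occurred in both libraries. The cells were placed in 5 classes by a few marker UMIs. Classes could overlap, and 61 cells in PyMT-M and 90 in PyMT-N fell in 2 or more. Blood endothelial cells (at least 5 UMIs of Pecam1, Flt1, Emcn and Kdr, at most 1 of Krt8, Krt18 and Rhox5, and none of Prox1) made up 588 cells (8.75%) in PyMT-M and 1065 (19.0%) in PyMT-N, although both samples are labelled endothelial. Tumor cells (at least 3 UMIs of Krt8, Krt18 and Rhox5 and none of Pecam1 and Flt1) numbered 4902 and 3306. Lymphatic cells (at least 3 UMIs of Prox1, Mmrn1 and Reln) numbered 20 and 207, fibroblasts (at least 3000 CPM of Col3a1, as defined below) 58 and 63, and Ptprc+ cells (at least 1 UMI of Ptprc, the gene of CD45) 488 and 357. The median blood endothelial cell held 5206.5 UMIs in PyMT-M but 12696 in PyMT-N, so levels are summed UMIs scaled to 1000000 UMIs of the class (CPM), and shares of cells with a UMI are read only beside them.

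The blood endothelial rule also let in cells with leukocyte transcripts. All 12 blood endothelial markers were detected in this class in both libraries, but the 14 leukocyte markers summed to 74.3 CPM in PyMT-M and 661 CPM in PyMT-N. In PyMT-N, 56 of the 1065 cells held a Ptprc UMI, and 37 of these had no UMI of Flt1, Kdr or Emcn. In PyMT-M the same held for 6 and 3 of 588 cells. Each member's ratio between the libraries in blood endothelium, where one was formed, is therefore also given for the 582 and 1009 cells without a Ptprc UMI. Other results on blood endothelium are given for these cells only where stated. The choice was made after seeing the data, and in these cells the leukocyte list came to 20.3 and 21.2 CPM.

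Cd274 was highest in Ptprc+ cells and next highest in blood endothelium of both libraries, where its interval overlapped that of lymphatic cells. Without Ptprc-bearing cells blood endothelium stood below lymphatic cells in PyMT-N. In PyMT-M the lymphatic level rested on 2 UMIs, so no order was read there. Blood endothelial cells held 100 Cd274 UMIs in PyMT-M, or 30.3 CPM (95% Poisson interval 24.7 to 36.9), and 223 UMIs in PyMT-N, or 15.0 CPM (13.1 to 17.1). The level was thus 2.03-fold higher in PyMT-M, for a log2 ratio of 1.02 (0.66 to 1.37). Cells with a Ptprc UMI carried 130 of the 223 UMIs in PyMT-N (58.3%) and 27 of the 100 in PyMT-M (27.0%). Without them the levels were 22.4 and 6.79 CPM, and the log2 ratio was 1.72 (1.26 to 2.18), so the distance between the libraries was wider once Ptprc-bearing cells were left out. One PyMT-M cell alone held 14 of the 73 remaining UMIs, and without the highest cell of each library the ratio was 1.50 (1.00 to 1.99).

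Cd274 was sparse in single cells. A UMI was seen in 49 of 588 blood endothelial cells in PyMT-M (8.33%) and in 100 of 1065 in PyMT-N (9.39%), against 6.81% and 4.02% of the deeper tumor cells. Each cell was then thinned to 5000 UMIs, and shallower cells were left out. This dropped 282 of the 588 blood endothelial cells in PyMT-M but 46 of 1065 in PyMT-N. The shares became 7.52% and 5.10% in blood endothelium and 1.82% and 1.42% in tumor cells. Without Ptprc-bearing cells 46 of 582 endothelial cells (7.90%) and 63 of 1009 (6.24%) had a UMI, and 7.64% and 3.32% did after thinning, so at equal depth the endothelial share lay above that of tumor cells in both libraries with and without those cells. Tumor cells held 3.38 CPM in PyMT-M and 2.85 CPM in PyMT-N (log2 0.25, 0.01 to 0.49). The endothelial level stood above the tumor level by a log2 ratio of 3.16 (2.83 to 3.48) in PyMT-M and 2.39 (2.12 to 2.67) in PyMT-N, and by 2.73 and 1.25 without Ptprc-bearing cells. Lymphatic cells held 2 and 35 UMIs (22.5 and 12.3 CPM) and fibroblasts 2 and 9 (3.72 and 5.88 CPM), and neighbours in the order from blood endothelium down to tumor cells had overlapping intervals. Once Ptprc-bearing cells were left out of blood endothelium, it no longer stood above lymphatic cells. In PyMT-M the levels were 22.4 and 22.5 CPM, the latter from 2 UMIs. In PyMT-N they were 6.79 and 12.3 CPM, for a log2 ratio of endothelial over lymphatic of -0.86 (-1.44 to -0.26), and the lymphatic cells without a Ptprc UMI stood at 11.3 CPM (7.67 to 16.0).

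**Figure D1:**
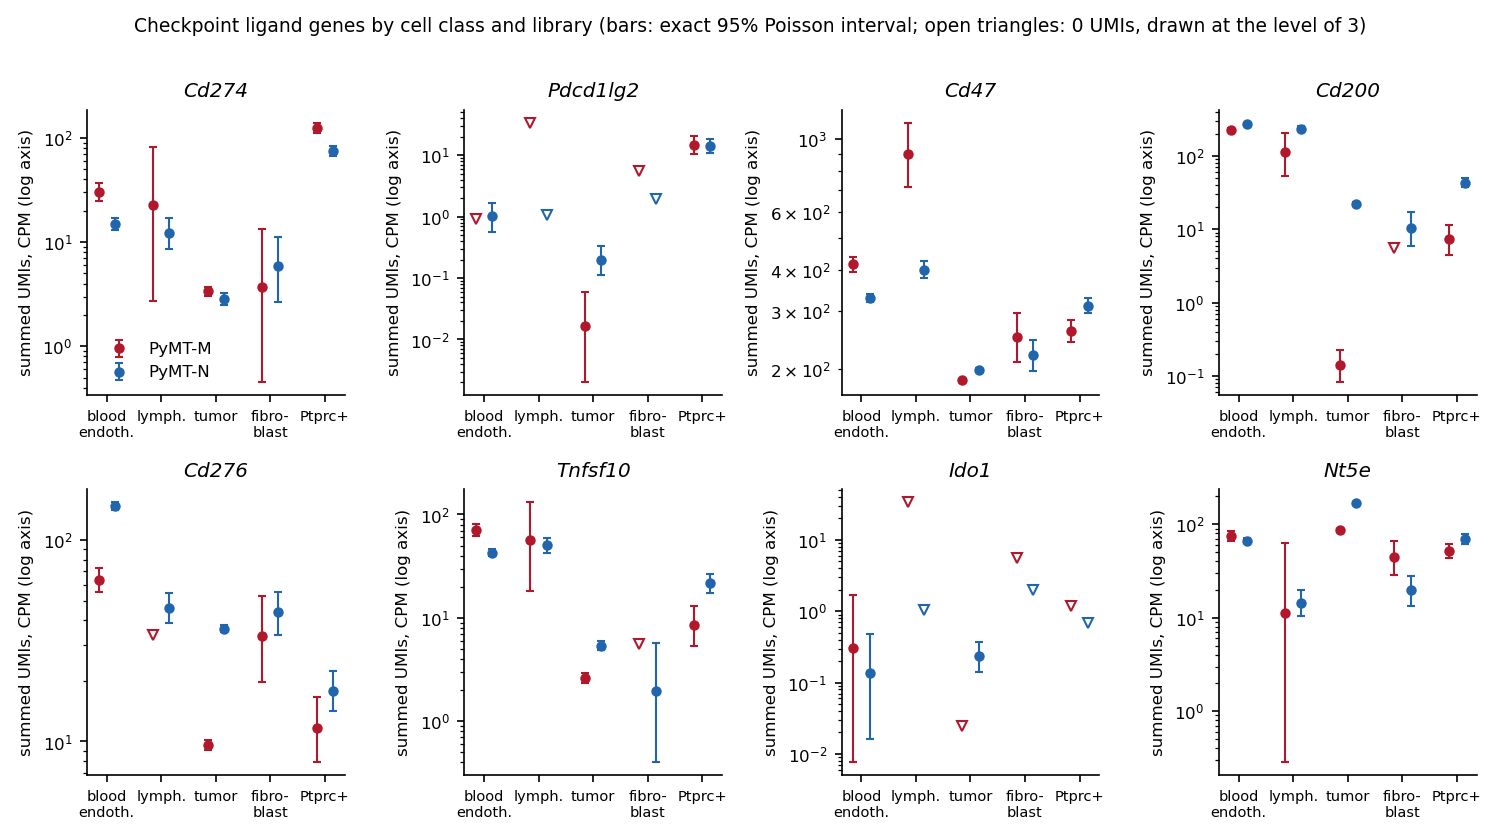
Levels in CPM (log axis) of the 8 genes in 5 cell classes of PyMT-M (red) and PyMT-N (blue). Points are levels, bars are exact 95% Poisson intervals, and open triangles mark the level of 3 UMIs where none was counted. Cd274 sits highest in Ptprc+ cells (125 and 75.3 CPM), Cd200, Cd276 and Tnfsf10 sit above tumor cells in blood endothelium, and Nt5e is highest in tumor cells.

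The sequence before the start of Cd274 is shown with that of Tnfsf10, which with Cd274 had the largest distances between interferon-low and interferon-high cells below, and of Cd276, whose intervals there included 0. These are the 250 bases before each RefSeq start site (GRCm38.p6), 5′ to 3′ on the gene's strand, at chr19:29367188-29367437 on the plus strand, chr3:27316827-27317076 on the plus strand and chr9:58555034-58555283 on the minus strand. Capitals mark GAAA on either strand, the repeated core of interferon response elements.
Cd274: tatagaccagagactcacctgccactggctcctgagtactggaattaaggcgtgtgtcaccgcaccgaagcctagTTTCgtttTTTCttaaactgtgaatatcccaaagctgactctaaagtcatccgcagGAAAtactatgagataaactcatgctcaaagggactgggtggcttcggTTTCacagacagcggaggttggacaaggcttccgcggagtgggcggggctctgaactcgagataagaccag
Tnfsf10: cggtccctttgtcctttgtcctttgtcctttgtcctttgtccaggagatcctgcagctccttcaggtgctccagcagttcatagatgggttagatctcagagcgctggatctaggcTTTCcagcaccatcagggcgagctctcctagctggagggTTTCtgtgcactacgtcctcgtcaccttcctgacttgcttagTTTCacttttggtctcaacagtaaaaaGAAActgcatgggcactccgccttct
Cd276: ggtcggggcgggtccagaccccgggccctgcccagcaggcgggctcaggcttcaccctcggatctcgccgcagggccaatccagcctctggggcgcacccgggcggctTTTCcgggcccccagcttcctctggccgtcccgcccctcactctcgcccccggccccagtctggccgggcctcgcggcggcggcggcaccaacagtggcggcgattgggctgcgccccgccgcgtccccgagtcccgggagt
The 4 letters matched 4 times before Cd274, 4 times before Tnfsf10 and 1 time before Cd276. It also matched 4 times before Cd200 and Pdcd1lg2, 1 time before each of 2 Cd47 starts and 0 times before Nt5e, so the number of matches did not sort the members by their distance. Of 27025 promoter windows of this length, 86.5% held at least 1 match. Promoters of 7 of the 8 genes were matched by symbol. In those 7, the interferon-stimulated response element, read as GAAA, any 2 bases and GAAA (in 3.04% of all windows), was not found on either strand. The NF-kB motif, in 5.70% of all windows, was found before Pdcd1lg2 only. GAAA is a part of that response element, and each match is a description of letters in these windows.

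Ptprc+ cells held 321 Cd274 UMIs in PyMT-M (125 CPM, 112 to 140) and 333 in PyMT-N (75.3 CPM, 67.5 to 83.9), for a log2 ratio of 0.73 (0.51 to 0.96). The direction turned with the cells kept and with how they were weighted. It was -0.38 (-0.74 to -0.04) among cells within 2-fold of the library's median gene number and -0.27 (-0.61 to 0.07) among cells with at least 5000 UMIs. When the 95 and 219 cells of that depth were each thinned to 5000 UMIs, the levels were 120 and 73.1 CPM. The shares with a UMI were then 23.2% and 23.3%. Of the class, 41 cells in PyMT-M and 19 in PyMT-N were also classed as tumor, and these held 25 and 2 of the Cd274 UMIs. Another overlap was with blood endothelium, at 6 and 56 cells, which held 27 of the 321 and 130 of the 333 UMIs. The Ptprc+ and blood endothelial levels thus share those counts. The median Ptprc+ cell held 1721.5 UMIs in PyMT-M but 7581 in PyMT-N. Cells with a UMI of Lyz2, a myeloid gene, numbered 141 and 168 and held 68.2% and 69.1% of the Cd274 UMIs of the class. These cells were deeper, with medians of 3296 and 11315.5 UMIs, and held 40.9% and 60.7% of its Cd47 UMIs. In PyMT-M the 44 cells with a UMI of S100a8, a neutrophil gene, stood at 355 CPM (284 to 439), and the 38 with Itgax, the CD11c gene, at 409 (320 to 515). In PyMT-N the corresponding 14 and 26 cells stood at 49.3 and 115 CPM. The class was not resolved into leukocyte types, since Cd79a, a B cell gene, had a UMI in 238 of 488 and 245 of 357 of its cells. Those cells held 35.8% and 85.0% of the Cd274 UMIs of the class. They stood at 111 and 88.4 CPM, against 135 and 41.0 CPM in cells without Cd79a. The shares by marker thus overlap and name no source.

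Pdcd1lg2, the second ligand of PD-1, was read in Ptprc+ cells and hardly elsewhere. It held 38 UMIs there in PyMT-M (14.8 CPM, 10.5 to 20.4) and 63 in PyMT-N (14.3 CPM, 11.0 to 18.2), for a log2 ratio of 0.06 (-0.56 to 0.66). This likeness was not kept at equal depth. After thinning, 1 of 95 Ptprc+ cells in PyMT-M (1.05%, 2.11 CPM) and 15 of 219 in PyMT-N (6.85%, 14.6 CPM) had a UMI. The intervals of these shares overlapped, at 0.0266% to 5.73% and 3.88% to 11.0%. The mean of single-cell CPM ran the other way, at 36.1 and 25.5, so no direction is read. In blood endothelium 0 of 588 PyMT-M cells had a UMI. By the limit of 3 counts this allows a share of cells with a UMI of up to 0.510% and a level of up to 0.91 CPM at this depth, and all 15 UMIs in PyMT-N lay in cells that also held Ptprc. Of the 34 Pdcd1lg2-bearing Ptprc+ cells in PyMT-M, 14 also held Cd274, as did 29 of 53 in PyMT-N. Ido1 was counted 18 times in PyMT-N tumor cells (0.24 CPM) and 0 times in those of PyMT-M. It had 1 and 2 UMIs in blood endothelium and none in lymphatic cells, fibroblasts or Ptprc+ cells, so no ratio was formed.

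Of the 6 members with at least 10 UMIs in blood endothelium of both libraries, 1 was at least 2-fold higher in PyMT-M (Cd274) and 1 at least 2-fold lower (Cd276). Among the 8544 genes that held 200 UMIs or more in the 2 libraries together, 6.73% passed 2-fold in either direction, 2.55% upward and 4.18% downward. The median log2 ratio was 0.26 for the 6 members and -0.0066 for all these genes. Without Ptprc-bearing cells the same 2 members passed 2-fold, beside 5.42% of 8162 genes, 2.71% upward and 2.71% downward. In tumor cells 3 of 6 members (Cd200, Cd276 and Tnfsf10) were at least 2-fold lower in PyMT-M and 0 higher, where 22.3% of all genes were that much lower, and in Ptprc+ cells 2 of 7 (Cd200 and Tnfsf10) were, where 10.3% of genes were. These shares cover genes with at least 200 UMIs in the class, while members needed 10 per library. In Ptprc+ cells Tnfsf10 (22 and 96 UMIs), Cd276 (30 and 79) and Pdcd1lg2 (38 and 63) fell short of 200. So did Cd274 (73 and 93) in blood endothelium without Ptprc-bearing cells. There the counts and shares are not like for like.

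Cd276 showed the opposite direction to Cd274. Blood endothelial cells held 63.4 CPM (209 UMIs, 55.1 to 72.6) in PyMT-M and 148 CPM (2207 UMIs, 142 to 154) in PyMT-N, for a log2 ratio of -1.22 (-1.43 to -1.02), and -1.31 without Ptprc-bearing cells. The share of cells with a UMI was 25.2% against 71.2%, and 23.9% against 49.0% after thinning. The lower PyMT-M level was thus also seen at equal depth, among the 306 and 1019 cells deep enough to be thinned. Tumor cells stood at 9.60 and 36.4 CPM, for a log2 ratio of -1.92 (-2.02 to -1.82), where 42.0% of 12553 genes passed 2-fold. Lymphatic cells held 46.2 CPM in PyMT-N and 0 UMIs in the 20 PyMT-M cells, in which 3 UMIs would amount to 33.7 CPM. Fibroblasts (33.5 and 43.8 CPM, log2 -0.39, -1.22 to 0.38) and Ptprc+ cells (11.7 and 17.9 CPM, log2 -0.61, -1.27 to 0.01) had intervals that included 0. As the mean of single-cell CPM the order in Ptprc+ cells was the reverse, at 9.82 and 8.48. Blood endothelium carried more Cd276 than tumor cells in both libraries, by a log2 ratio of 2.72 and 2.02.

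Tnfsf10, the ligand of the TRAIL death receptors, had its highest class levels in blood endothelial and lymphatic cells. Blood endothelial cells held 70.7 CPM (233 UMIs, 61.9 to 80.3) in PyMT-M and 42.5 CPM (634 UMIs, 39.3 to 46.0) in PyMT-N, for a log2 ratio of 0.73 (0.51 to 0.95), and 0.69 without Ptprc-bearing cells. Over 11 alternative settings this ratio kept its direction, from 0.44 to 0.82, and the lowest value lay outside the main interval. Lymphatic cells were at a level like that of blood endothelium (56.2 and 50.4 CPM). In tumor cells, at 2.63 and 5.39 CPM, and in Ptprc+ cells, at 8.59 and 21.7 CPM, the ratio ran the other way, at -1.03 (-1.25 to -0.82) and -1.34 (-2.08 to -0.66). Blood endothelium thus ordered the libraries differently from tumor and Ptprc+ cells, while the lymphatic ratio was 0.16 (-1.49 to 1.41) and fibroblasts held 0 and 3 UMIs. The Ptprc+ class was uneven. Its cells with a UMI of Nkg7, one of the leukocyte markers, stood at 31.9 CPM (8 UMIs, 13.8 to 62.8) in PyMT-M. In PyMT-N they stood at 38.9 CPM (57 UMIs, 29.5 to 50.4). Both intervals overlapped those of blood endothelium. A UMI was found in 24.8% and 31.4% of blood endothelial cells, and in 20.3% and 17.7% after thinning, against 1.39% and 2.42% of thinned tumor cells.

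Cd200 had the largest excess of blood endothelium over tumor cells among the 6 members in both libraries. Blood endothelial cells held 225 CPM (743 UMIs) in PyMT-M and 275 CPM (4094 UMIs) in PyMT-N, for a log2 ratio of -0.29 (-0.40 to -0.17), and -0.36 without Ptprc-bearing cells. Tumor cells held 17 UMIs, or 0.14 CPM, in PyMT-M and 1668 UMIs, or 22.1 CPM, in PyMT-N, for a log2 ratio of -7.29 (-8.08 to -6.61). Cd200 thus separated the 2 tumor lines far more than their vessels. In PyMT-M, blood endothelium exceeded tumor cells by a log2 ratio of 10.65, against 3.64 in PyMT-N. Lymphatic cells stood at 112 and 233 CPM (log2 -1.05, -2.12 to -0.16), with only 10 UMIs behind the PyMT-M value. Ptprc+ cells stood at 7.42 and 43.2 CPM (log2 -2.54). Of these UMIs, 4 of 19 in PyMT-M and 92 of 191 in PyMT-N lay in cells also classed as blood endothelial.

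Cd47 had a UMI in 77.6% and 92.7% of blood endothelial cells and in 93.5% and 94.0% of the deeper tumor cells. Thinned to 5000 UMIs per cell the shares were 83.3% and 77.8% in blood endothelium and 57.8% and 61.2% in tumor cells, so at equal depth the endothelial share was the higher one in both libraries. Its level in blood endothelium was 417 CPM (395 to 439) in PyMT-M and 329 CPM (320 to 339) in PyMT-N, for a log2 ratio of 0.34 (0.25 to 0.43). Without Ptprc-bearing cells that ratio was 0.35 (0.26 to 0.43). Lymphatic cells were highest in both libraries, at 899 CPM from 80 UMIs and 401 CPM from 1137 UMIs (log2 1.16, 0.82 to 1.49). In tumor cells the levels were 185 and 199 CPM (log2 -0.10), and the sign turned to 0.10 when mitochondrial, ribosomal-protein and hemoglobin genes were left out of the total. In Ptprc+ cells (262 and 312 CPM, log2 -0.25) it turned to 0.025 among cells of 1 class only, so no direction is read for these 2 classes.

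Of the 6 members, only Nt5e was at a higher level in tumor cells than in blood endothelium. Tumor cells held 87.5 CPM (10570 UMIs) in PyMT-M and 169 CPM (12772 UMIs) in PyMT-N, for a log2 ratio of -0.95 (-0.99 to -0.91). Blood endothelium held 75.5 CPM (66.4 to 85.5) and 66.4 CPM (62.3 to 70.7), where the interval of the log2 ratio, 0.19 (-0.02 to 0.39), included 0. Without Ptprc-bearing cells that ratio was 0.13 (-0.08 to 0.34). Fibroblasts stood at 44.7 and 19.6 CPM from 24 and 30 UMIs (log2 1.19, 0.35 to 2.01), and Ptprc+ cells at 51.9 and 69.7 CPM (log2 -0.42, -0.73 to -0.13). Of the Ptprc+ UMIs, 82 of 133 in PyMT-M and 94 of 308 in PyMT-N lay in cells also classed as tumor. Of the fibroblasts, 12 of 58 in PyMT-M and 9 of 63 in PyMT-N were also classed as tumor. The direction thus differed between classes that share some of their cells.

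**Figure D2:**
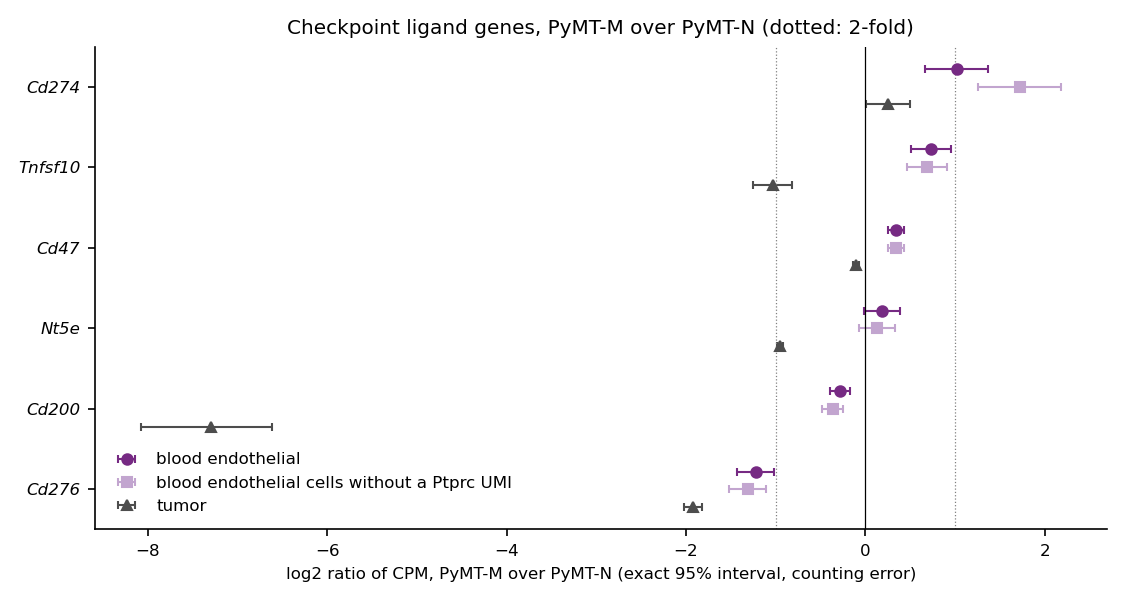
Log2 ratio of CPM, PyMT-M over PyMT-N, for the 6 members with at least 10 UMIs in both libraries, in blood endothelial cells (circles), the same cells without a Ptprc UMI (squares) and tumor cells (triangles), with exact 95% intervals of a ratio of 2 Poisson counts. Cd274 and Tnfsf10 lie to the right of 0 in endothelium, Cd276 lies left in both cell types, and the tumor value of Cd200 is -7.29. The tumor value of Cd47 changes sign when mitochondrial, ribosomal-protein and hemoglobin genes leave the total.

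Set against tumor cells of the same library, 5 of 6 members in PyMT-M (Cd274, Cd47, Cd200, Cd276 and Tnfsf10) and 4 of 6 in PyMT-N (the same without Cd47) were at least 2-fold higher in blood endothelium. Of all genes with at least 200 UMIs in that comparison, 19.2% in PyMT-M and 17.4% in PyMT-N were. Nt5e was lower in endothelium, with log2 ratios of -0.21 and -1.35.

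The members differed in how they followed interferon-induced genes among blood endothelial cells. A list of 18 such genes, none of them a member, came to 5330 CPM in PyMT-M and 1968 CPM in PyMT-N in cells without a Ptprc UMI (log2 1.44). The list was also higher in PyMT-M tumor cells, at 1962 against 719 CPM (log2 1.45), with 12 of its 17 genes read there higher and 5 lower. In those tumor cells the log2 ratio was 0.25 for Cd274 and -1.03 for Tnfsf10. Blood endothelial cells without a Ptprc UMI were ranked on the list and cut into 3 equal parts within each library. From the lowest to the highest part, Cd274 went from 6.63 to 58.3 CPM in PyMT-M (log2 3.14, 2.01 to 4.51) and from 1.67 to 16.7 CPM in PyMT-N (log2 3.32, 2.26 to 4.59). In PyMT-M 1 cell held 14 of the 61 UMIs of the highest part. The middle part stood at 4.33 CPM (5 UMIs) and 3.17 CPM (15 UMIs), so Cd274 was raised mainly in the highest part. Tnfsf10 went from 42.6 to 122 CPM (log2 1.52, 1.02 to 2.05) and from 20.7 to 86.8 CPM (log2 2.07, 1.74 to 2.40). Both genes were thus higher in the interferon-high cells of each library. Cd47 (log2 0.64 and 0.37) and Cd200 (0.60 and 0.33) showed smaller distances in the same direction. Cd276 did not, at 0.33 (-0.19 to 0.85) and 0.0014 (-0.15 to 0.15), and Nt5e was at -0.12 (-0.59 to 0.36) and -0.50 (-0.75 to -0.27).

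The libraries were then set side by side at equal list levels, in 5 ranges of list CPM per cell that were chosen after seeing the data. In PyMT-M 96 of 582 cells (16.5%) lay at 8000 CPM or more and 26 (4.47%) under 1000, whereas in PyMT-N 44 of 1009 (4.36%) and 431 (42.7%) did. Within the highest range the list itself was at 13634 and 13597 CPM, Cd274 at 102 CPM (76.7 to 133) and 84.2 CPM (61.4 to 113), and the log2 ratio was 0.28 (-0.32 to 0.88). Those cells held 54 of the 73 Cd274 UMIs in PyMT-M and 45 of the 93 in PyMT-N. Of the 54 in PyMT-M, 14 came from 1 cell. Over all 5 ranges the Cd274 ratio lay between -1.32 and 2.17 with an interval that included 0 each time, and in the 4 lower ranges it rested on at most 16 UMIs per library. At equal list levels no Cd274 difference between the libraries was detectable at this depth.

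Tnfsf10 behaved alike at equal list levels, with 181 and 230 CPM in the highest range (log2 -0.34, -0.74 to 0.05) and ratios from -1.31 to 0.17 whose intervals all included 0. Among cells with at least 5000 UMIs it was lower in PyMT-M in 2 of the 5 ranges, at -1.08 (-1.80 to -0.43) for 2000 to 4000 CPM and -0.76 (-1.41 to -0.12) for 4000 to 8000 CPM. Cd276 stayed lower in PyMT-M throughout, with ratios from -1.88 to -1.26 and every interval below 0. Cd200 was lower in PyMT-M in each range, from -0.68 to -0.34, with an interval that included 0 only under 1000 CPM. Cd47 had no single direction, at 0.54 under 1000 CPM, -0.22 at 4000 to 8000 and 0.33 in the highest range. Nt5e ran from -0.14 to 0.68. The PyMT-M cells of the ranges had medians of 3011 to 5721.5 UMIs and the PyMT-N cells of 10772.5 to 12942, and the part of this depth gap in the ratios was tested only by keeping cells with at least 5000 UMIs.

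**Figure D3:**
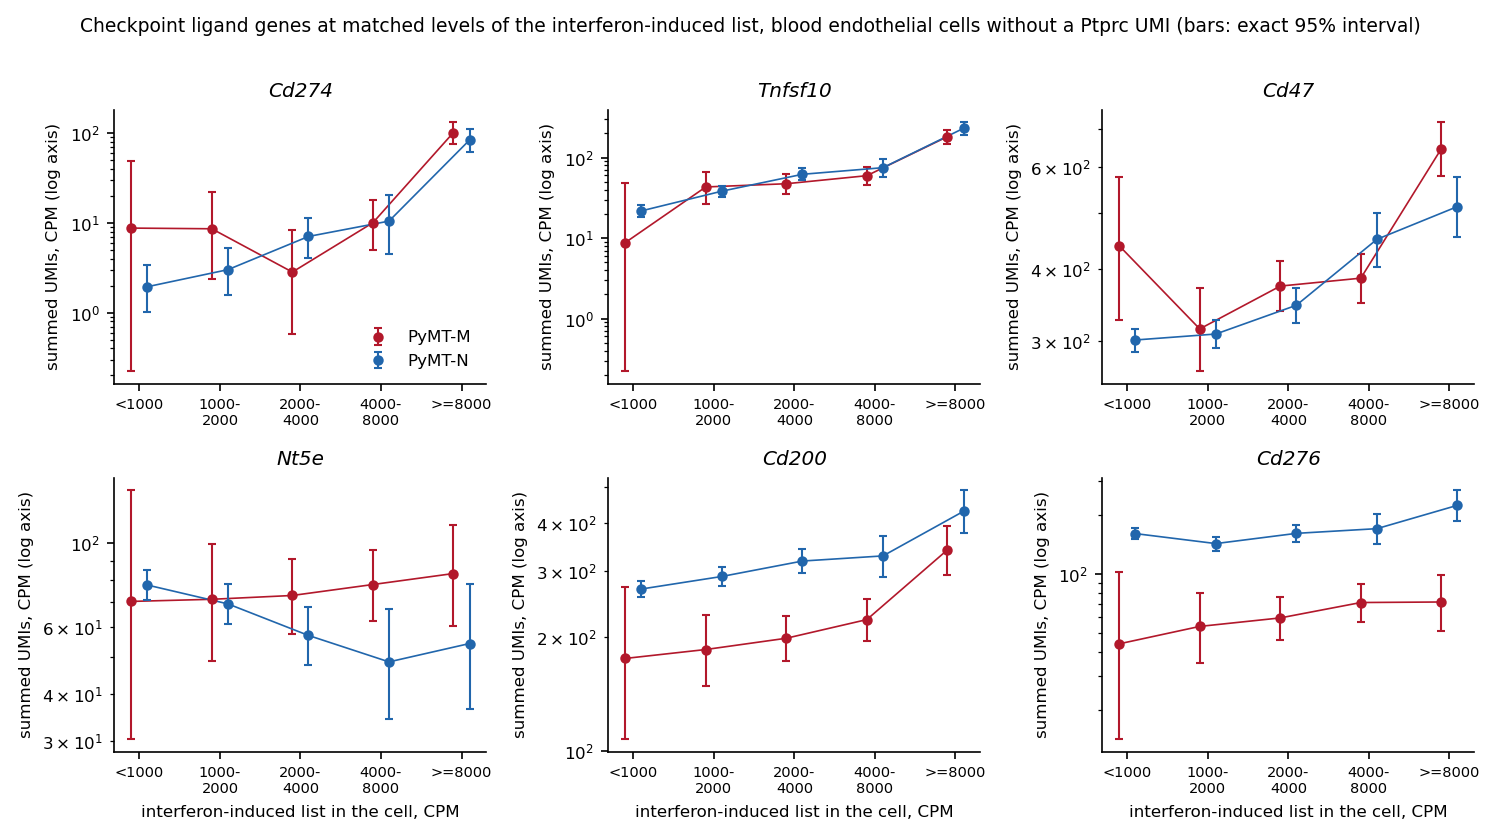
Levels in CPM (log axis) of 6 members in blood endothelial cells without a Ptprc UMI, by the cell's CPM of the interferon-induced list, for PyMT-M (red) and PyMT-N (blue). Bars are exact 95% Poisson intervals. Cd274 (102 and 84.2 CPM) and Tnfsf10 (181 and 230 CPM) are highest at 8000 CPM or more with overlapping intervals, while the Cd276 curves stay apart at every level.

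Vessel states, set by at least 3 UMIs of a few marker genes (5 for capillary) and free to overlap, ordered the members differently. The thresholds are not scaled to depth, so they can admit cells with lower marker levels in the deeper PyMT-N library. Ratios between the libraries within a state are therefore not like for like. In PyMT-M, Cd274 was highest in venous cells (Ackr1, Selp, Sele, Vcam1) and next in interferon-state cells (Cxcl9, Cxcl10, Rsad2, Ifit1), and in PyMT-N the order was the reverse, with overlapping intervals in each library. Interferon-state cells held 43.5 CPM from 210 cells in PyMT-M and 19.9 CPM from 221 cells in PyMT-N (log2 1.13, 0.60 to 1.67). Venous cells held 61.2 CPM from 79 cells in PyMT-M and 12.9 CPM from 92 cells in PyMT-N (log2 2.25, 1.33 to 3.22), though 14 of the 30 UMIs in PyMT-M came from 1 cell. Tip cells (22.6 and 5.46 CPM, log2 2.05) and capillary cells (20.4 and 6.41 CPM, log2 1.67) showed the same direction. Arterial cells, with 3 and 10 UMIs, and cycling cells, with 3 and 8, were too thinly read for one. Tnfsf10 was highest in venous cells, at 118 and 85.2 CPM, with intervals that overlapped those of interferon-state cells, at 102 and 81.0 CPM. It was lowest in cycling cells, at 36.7 and 18.8 CPM. Cd200 was highest in arterial cells (Gja5, Gja4, Sema3g, Bmx, Hey1), at 525 CPM in PyMT-M and 384 CPM in PyMT-N. There the ratio was 0.45 (0.18 to 0.72), whereas in capillary cells it was -0.36 (-0.48 to -0.23). Cd276 was lower in PyMT-M in all 6 states, from -0.96 (-1.78 to -0.22) in venous to -2.69 (-4.01 to -1.63) in arterial cells, where PyMT-M held 7 UMIs.

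**Figure D4:**
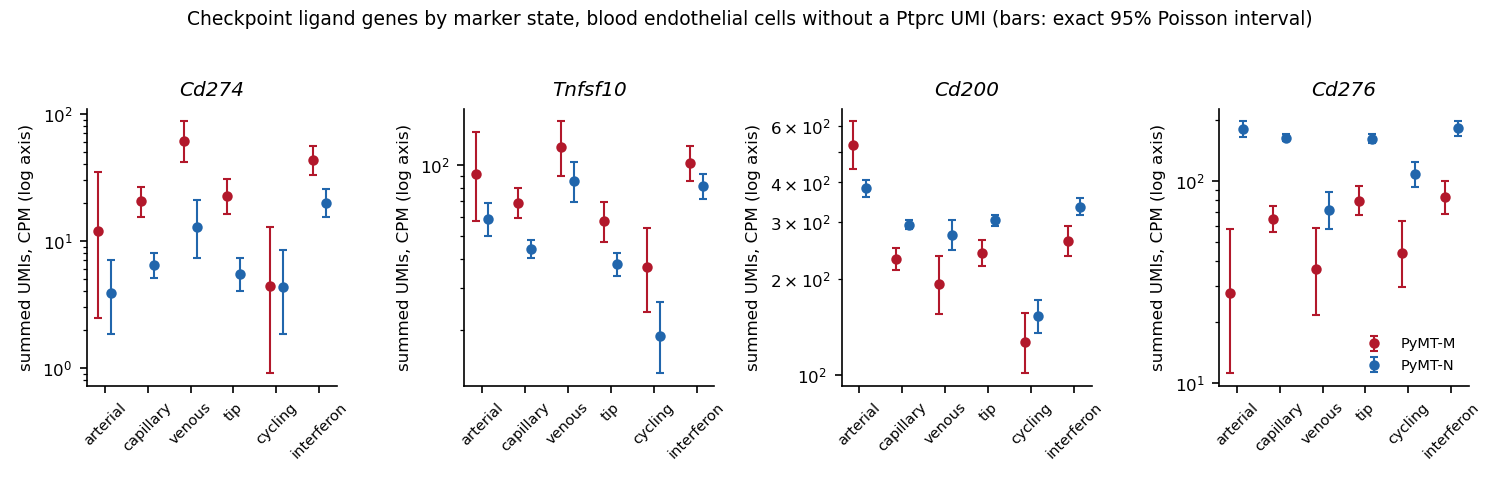
Levels in CPM (log axis) of 4 members by marker state of blood endothelial cells without a Ptprc UMI, PyMT-M in red and PyMT-N in blue, with exact 95% Poisson intervals. Cd274 is highest in venous cells in PyMT-M (61.2 CPM) and in interferon-state cells in PyMT-N (19.9 CPM), Cd200 is highest in arterial cells (525 and 384 CPM), and the PyMT-M points of Cd276 lie below those of PyMT-N in every state.

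Receptors and partners of the members were measured in the same endothelium. Of 12 listed, 8 had at least 50 UMIs, 2 of them at least 2-fold higher in PyMT-M and 3 lower, with a median log2 ratio of 0.02. Among all genes with at least 200 UMIs in this class, 6.73% passed 2-fold either way. No such share was computed at 50 UMIs, so the counts in this and the following lists stand without one. The higher ones were Thbs1, which encodes the CD47 ligand thrombospondin-1 (186 and 52.2 CPM, log2 1.83, 1.68 to 1.99), and Tnfrsf23, a TRAIL decoy receptor (80.4 and 35.1 CPM, log2 1.19, 0.97 to 1.41), with the related decoy Tnfrsf22 at 0.99. The lower ones were Tnfrsf11b, the secreted decoy osteoprotegerin (1.52 and 25.8 CPM, log2 -4.09, -5.72 to -2.85), Adora2a, an adenosine receptor (4.25 and 19.7 CPM, log2 -2.21), and Sirpa, the CD47 receptor of myeloid cells (log2 -1.56). Without Ptprc-bearing cells Sirpa was at -0.91, Tnfrsf11b at -4.18 and Adora2a at -2.31. The death receptor Tnfrsf10b was at 0.20 (-0.19 to 0.58). The 3 TRAIL decoys (1.19, 0.99 and -4.09) thus lay farther from 0 than the death receptor.

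Of the 18 interferon-induced genes, 15 were at least 2-fold higher in PyMT-M blood endothelium and 1 lower, with a median log2 ratio of 1.30. Isg15 (2.02), Ifit3 (1.99) and Cxcl10 (1.96) were highest, and Irgm1 (0.94) and Tap2 (0.36) stood low. The lower one was Ciita, the MHC class II activator, at 3 and 210 UMIs (log2 -3.95), and only 1 and 3 of these UMIs lay outside Ptprc-bearing cells. Without those cells 14 of 17 genes were at least 2-fold higher and none lower, with a median of 1.39. None of the 12 genes of the path from interferon gamma to Cd274 passed 2-fold (1 did so, upward, without Ptprc-bearing cells), with a median of -0.051. Socs1, a feedback inhibitor of the path, was at 0.59 and the kinase Jak2 at 0.33. Lowest were Cmtm6, which stabilizes PD-L1 protein, at -0.56 (-0.84 to -0.30), Ifngr1 at -0.19 and Jak1 at -0.17. The readout genes and the path's own receptors and kinases thus stood apart in size.

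Among 24 other immune-modulating ligands 14 had at least 50 UMIs, 2 at least 2-fold higher and 4 lower (median -0.15). Highest were Ceacam1, a TIM-3 ligand, at 2.06 (1.58 to 2.54), H2-T23, the Qa-1 molecule read by NKG2A, at 1.07 (0.90 to 1.25), and Pvr, a TIGIT ligand, at 0.94. Lowest were Arg1 (0 and 61 UMIs), Icosl (2 and 49) and Cd24a (3 and 63). These 3 were borne by the Ptprc-bearing cells, outside which they held at most 5 UMIs in a library, and without those cells the list had 2 genes higher and 1 lower of 10 (Nectin3, -1.03), with a median of 0.33. None of 7 TRAIL death pathway genes passed 2-fold, from Bid (0.33), Fadd (0.27) and Cflar (0.21) to Birc2 (-0.18) and Birc3 (-0.30), with a median of 0.20. Of 7 adenosine genes 3 had at least 50 UMIs, 1 of them at least 2-fold higher and 0 lower (median 0.46). Entpd1, which makes the AMP that CD73 uses, was at 0.46 (0.36 to 0.56), Ada, which removes adenosine, at 1.40 (0.61 to 2.17) from 24 and 41 UMIs, and the transporter Slc29a1 at -0.19. Of 7 kynurenine genes 4 were read that deeply, 0 higher and 2 lower (median -1.45), and without Ptprc-bearing cells 2 were, neither past 2-fold. Ahr, a receptor for kynurenine, was at 0.87 and Afmid at 0.15. Kynu (2 and 75 UMIs, log2 -3.05) and Kmo (1 and 53 UMIs, log2 -3.55, -8.88 to -1.01) had no UMI in PyMT-N cells without Ptprc.

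**Figure D5:**
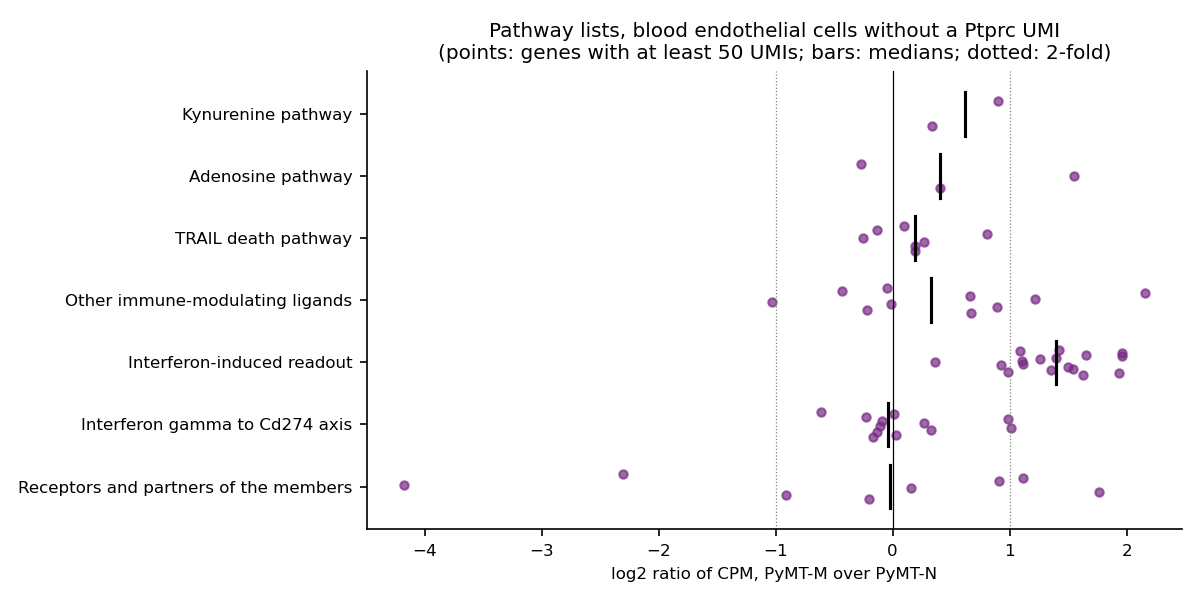
Log2 ratio of CPM, PyMT-M over PyMT-N, in blood endothelial cells without a Ptprc UMI for the genes of 7 lists with at least 50 UMIs. Points are genes, black bars are list medians and dotted lines mark 2-fold. The interferon-induced genes have a median of 1.39 and the path from interferon gamma to Cd274 one near 0, and Tnfrsf11b stands at -4.18 among the receptors.

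Likeness of pattern was measured by Pearson's r of log2(CPM + 5) over the 10 combinations of class and library, among 10218 genes, as a description. These points share libraries, depth and some cells. Closest to Cd274 were Plek (0.93), Spi1 (0.93), 2310001H17Rik (0.92), Coro1a (0.92) and Epsti1 (0.91), of which Plek, Spi1 and Coro1a are leukocyte genes. For Cd200 they were Ica1, Shroom2 and F11r, each at 0.98 or 0.99, for Cd47 Gbp6, Rasgrf2 and Casz1 (each 0.97), and for Tnfsf10 Mbd2, Hid1 and Lnx2 (each 0.98). For Cd276 they were E2f3 (0.96), Fam171a2 (0.95) and Bud31 (0.94), and for Nt5e Pfkp (0.92), Capg (0.88) and Ppp1ca (0.88). Cd47, Gbp6, Rasgrf2 and Casz1 all peaked in PyMT-M lymphatic cells, the last 3 at 78.6, 89.9 and 33.7 CPM. In that class 3 UMIs amount to 33.7 CPM, so this likeness rests on few UMIs.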

How the data were processed

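The authors deposited UMI counts, whole numbers per gene and cell barcode, not normalized and made with Cell Ranger 8.0.0 on mm39 per the submitters' processing notes. The members and gene lists were chosen with earlier results of these data known, and the lists were not picked for how they moved. UMIs were summed over cells and divided by the class total (CPM). Levels carry exact Poisson intervals, ratios the exact conditional interval of 2 Poisson counts, and shares exact Clopper-Pearson intervals, all at 95%. A count of 0 was read against 3 UMIs. Named genes are the 8 members and, per list, the 3 highest and the 3 lowest ratios in blood endothelium among genes with at least 50 UMIs, fewer in short lists. Some genes that this rule picks are not reported here. Other genes named, the marker splits of Ptprc+ cells and the ranges of list level were chosen after seeing the data. The ratio was checked on simulated independent Poisson counts. That check cannot show whether its intervals hold where UMIs cluster in a few cells. Scrublet, run in scanpy 1.11.5, called 0.0128% of PyMT-M barcodes, so it did not work there, and doublets were kept, with an alternative that leaves out the 6% of barcodes scored highest. Promoter sequences are RefSeq's (GRCm38.p6), matched by symbol. The mm39 annotation was not used here, so no gene coordinates are given on it. Scripts ran in Python 3.11.15 with numpy 2.4.6, pandas 2.3.3 and scipy 1.17.1.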

Additional observations from a re-analysis of the deposited data

Results flagged for a closer look

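In all, 3 members had ratios of PyMT-M over PyMT-N whose counting intervals lay on opposite sides of 0 in different cell classes. With 1 library per condition these differences between classes were not tested. Tnfsf10 was at 0.73 (log2) in blood endothelial cells, -1.03 in tumor cells and -1.34 in Ptprc+ cells. Cd47 was at 0.34 in blood endothelial and 1.16 in lymphatic cells, against -0.10 in tumor and -0.25 in Ptprc+ cells, and both negative values turn sign under other settings, given below. Nt5e was at 1.19 in fibroblasts, -0.95 in tumor cells and -0.42 in Ptprc+ cells, with some cells in more than 1 of these classes.

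Barcodes removed by the cell filter, which entered no comparison, still held Cd274. It stood at 23.2 CPM (31 UMIs) in PyMT-M and 5.40 CPM (8 UMIs) in PyMT-N, above the 3 UMIs set as the limit for a count of 0. In PyMT-M 12 barcodes held a Cd274 UMI, and 1 of them held 17 of the 31. In PyMT-N all 8 lay in 4 barcodes that also held Ptprc.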

How the results depend on the processing

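Each ratio, list summary and share was recomputed under the alternatives, and 440 of 567 values stayed within the main counting interval, 1.5 times the main count or, for list medians, 0.20 log2. The Cd274 ratio in blood endothelium (1.02) kept its direction in all 12 alternatives, from 1.02 to 1.73. It was 1.73 among cells of 1 class only, 1.72 without Ptprc-bearing cells and 1.67 among cells with fewer than 2 leukocyte marker UMIs. With both Ptprc-bearing cells and each library's cell with the most Cd274 UMIs left out it was 1.50. Of Cd274 over tumor cells, the PyMT-M value (3.16) was 2.81, 2.73 and 2.72 under the first 3 of these, and the PyMT-N value (2.39) was 1.26, 1.25 and 1.30, 2.03 with stricter class thresholds and 2.02 as the mean of single-cell CPM. The signs of 3 ratios whose main interval excluded 0 turned. Cd274 in Ptprc+ cells (0.73) was -0.38 among cells within 2-fold of the median gene number and -0.27 among cells with at least 5000 UMIs. Cd47 in Ptprc+ cells (-0.25) was 0.025 among cells of 1 class only and 0.044 as the mean of single-cell CPM, and in tumor cells (-0.10) it was 0.10 without mitochondrial, ribosomal-protein and hemoglobin genes in the total. Ratios whose main interval included 0 were not counted here. Among these, Cd276 in Ptprc+ cells (-0.61) also turned sign, with a mean of single-cell CPM of 9.82 in PyMT-M and 8.48 in PyMT-N. The cause of these turns was not tested. Of the shares of cells, 61 of 108 values moved outside their interval, and shares were not compared across depths without thinning. The alternatives that drop Ptprc-bearing or shallow cells were chosen after seeing the data. No paired analysis was possible because each condition is 1 library and the labels give no shared replicate numbers. The 20 lymphatic cells of PyMT-M, with 89004 UMIs in all, set the limit for that class.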
